A study of Mus musculus with 24 samples.

Results

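Whether skeletal muscle responded differently to Klotho in old and in oldest-old mice was asked of 16 RNA-seq libraries, out of 24 in the series, each from the gastrocnemius, a muscle of the calf, of 1 female C57BL/6J mouse. Old mice were 21 to 24 months of age and oldest-old mice 27 to 29 months. At each age, 4 mice had received AAV-Kl and 4 had received the same kind of vector carrying green fluorescent protein (GFP), at 3e8 vector genomes per mouse into the tail vein, 14 days before the muscle was taken. AAV-Kl is an AAV8 vector with a codon-optimised mouse Klotho sequence under a liver-specific promoter, so the protein was to be made in the liver and reach muscle through the blood. All 16 mice, controls included, therefore carried a vector. Mice had entered the experiment only if their hang test lay in the middle of the range, and each experiment drew on more than a single cohort of mice, which the labels do not assign to libraries. Members were chosen by group label alone, as the 4 libraries of each of the old GFP, old AAV-Kl, oldest-old GFP and oldest-old AAV-Kl groups. The series also held 4 libraries of young GFP mice, 3 to 6 months of age, which entered the fit only to share the estimate of spread. Its 4 young sham libraries were left out of the main fit.

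Klotho is a membrane protein of the kidney and brain whose shed form circulates in blood, falls with age, and serves as a co-receptor through which FGF23 acts on FGF receptors. Chaperones fold and refold proteins, and a subset of them is transcribed on demand by heat shock factors when misfolded proteins accumulate. Muscle fibres depend on mitochondria for sustained work, and the respiratory chain is built from subunits encoded in the nucleus and from a few encoded in mitochondrial DNA and made on mitochondrial ribosomes.

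The quantity reported is the interaction: the log2 fold change of AAV-Kl over GFP in oldest-old mice minus the same log2 fold change in old mice. A positive value says that the change with AAV-Kl was more positive in oldest-old mice, and a value of 1 corresponds to a further doubling. It was tested for 17465 genes with edgeR's quasi-likelihood test. Levels are given as CPM, read counts scaled to a common library size with TMM normalization, for replicates 1 to 4 in order. The reads assigned to genes per library ranged from 36415886 to 59733985, with a median of 50117244.5.

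Several libraries stood apart from their group before any comparison was made. The summed level of 8 skeletal muscle markers lay between 99540 and 144800 CPM in all 16 libraries. The 19 tested liver markers summed to 1095 and 129.4 CPM in old GFP replicates 1 and 4 and to 175.2 CPM in old AAV-Kl replicate 4. In the 8 oldest-old libraries the same markers summed to 1.355 to 3.436 CPM. Keratinocyte markers reached 76.72 CPM in old AAV-Kl replicate 2 and 27.14 CPM in oldest-old AAV-Kl replicate 4, and 7.913 CPM at most elsewhere. The 7 erythroid markers summed to 483.6 and 360.8 CPM in old AAV-Kl replicates 1 and 2 and to 604.0 and 663.2 CPM in oldest-old GFP replicates 1 and 4, against at most 180.0 CPM elsewhere. Adipocyte markers summed to 1557 CPM in old AAV-Kl replicate 2 and 952.3 CPM in oldest-old AAV-Kl replicate 2, and to 243.5 to 797 CPM elsewhere. The 7 B and plasma cell markers summed to 1265 CPM in old AAV-Kl replicate 3 and 826.5 CPM in oldest-old GFP replicate 1, and to 107.5 to 621.7 CPM elsewhere. Of the 7 erythroid genes, 5 (71.4%) had a negative interaction at an unadjusted p under 0.05, against 2.73% of all tested genes. Leaving out single libraries gave 3 to 7, and 0 passed without old AAV-Kl replicate 2 and oldest-old GFP replicate 4. In such bulk samples fewer cells of a type and less RNA per cell cannot be told apart.

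The response to AAV-Kl differed between the ages for 895 genes at an unadjusted p under 0.05, which is 5.12% of the genes tested. The interaction was positive for 418 genes (2.39%) and negative for 477 genes (2.73%). A threshold of 0.05 alone would pass 873 of 17465 genes, so the number of genes is close to that background. After Benjamini-Hochberg adjustment, 0 genes were under 0.05 by edgeR's quasi-likelihood test and 1 gene, Impact, by DESeq2. The lowest adjusted p by edgeR was 0.178. All unadjusted p-values given from here on are read against that result.

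The genes past the unadjusted threshold moved mostly in opposite directions at the 2 ages. Of the 895 genes, 859 (96.0%) had AAV-Kl changes of opposite sign in old and oldest-old mice, where 53.5% of all tested genes did. The change was larger in oldest-old than in old mice for 699 of them (78.1%), against 61.0% of all tested genes. The 418 genes with a positive interaction had a median log2 change of -0.12 in old and 0.27 in oldest-old mice. The 477 with a negative interaction had medians of 0.17 and -0.33. The AAV-Kl change itself passed an unadjusted p under 0.05 in old mice for 123 of the 895 genes and in oldest-old mice for 563, with 20 in both, while 1.90% and 7.18% of all tested genes passed at these ages. The interaction is built from both responses, so these splits describe the genes and are not further evidence.

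**Figure D1:**
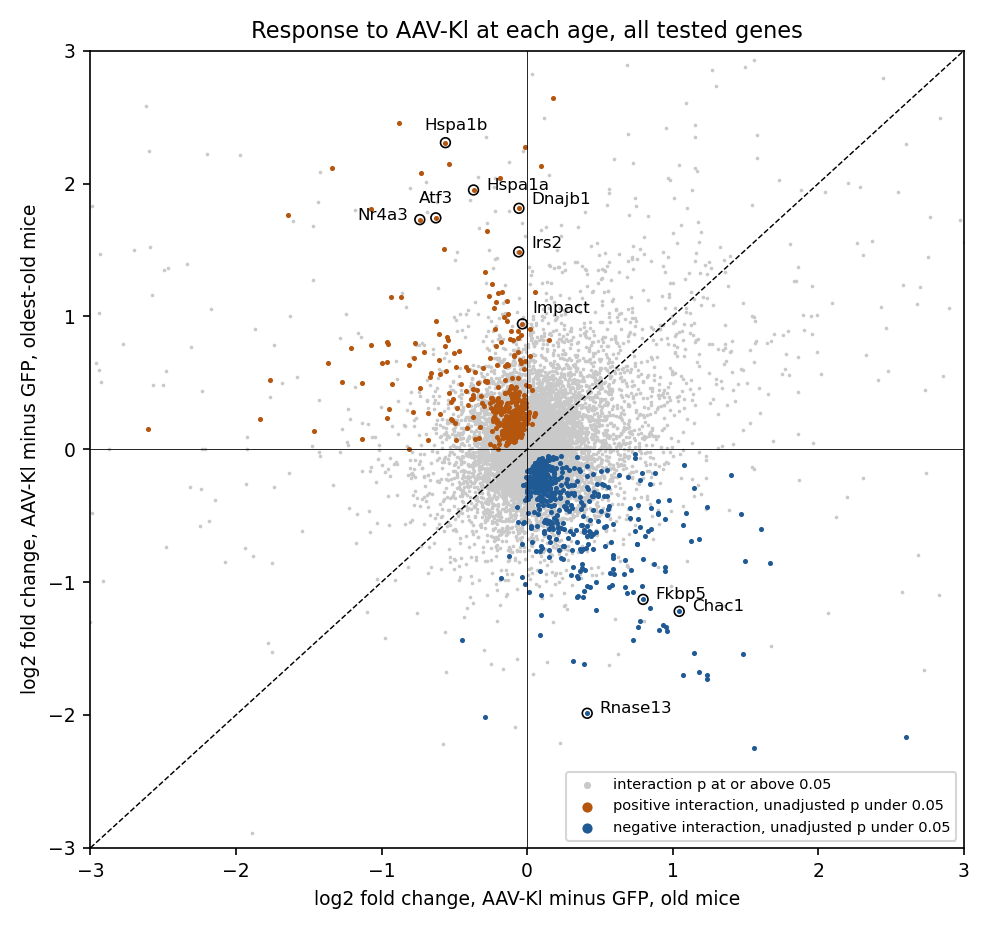
Log2 fold change of AAV-Kl over GFP in old mice (horizontal axis) and in oldest-old mice (vertical axis), with 1 point per tested gene, 80 of the 17465 genes lying outside the plotted range, and the dashed line marking equal responses. The 418 genes with a positive and the 477 with a negative interaction lie mainly in the quadrants where the responses have opposite signs.

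The gene with the smallest p was Impact, which encodes a protein that restrains the amino acid sensing kinase GCN2. It had 18, 21.8, 23.3 and 19.4 CPM in old GFP mice and 19.5, 18.6, 20.1 and 22.4 CPM in old AAV-Kl mice. In oldest-old GFP mice it had 18.6, 20, 19.8 and 21 CPM, and in oldest-old AAV-Kl mice 41.5, 34.2, 31.1 and 46.0 CPM. All 4 oldest-old AAV-Kl libraries lay above the 12 other old and oldest-old libraries. The mean of the young GFP libraries was 31.76 CPM (SD 3.616), above oldest-old AAV-Kl replicate 3. The log2 interaction of Impact was 0.98 (standard error 0.16; edgeR, unadjusted p = 1.018e-05, adjusted p = 0.178). Its log2 change with AAV-Kl was -0.03 in old and 0.94 in oldest-old mice, and the latter passed adjustment within that comparison (edgeR, adjusted p = 0.00273). Under 29 other settings, which changed the scaling, filter, tool or libraries, the interaction of Impact lay between 0.88 and 1.1, with an unadjusted p of 5.38e-05 at most.

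Irs2, which encodes an adaptor of the insulin receptor (GRCm38, chr8:10984681-11008458, minus strand), had the same shape. It had 65.3, 45.8, 37.5 and 34.7 CPM in old GFP mice and 31.6, 34.8, 37.6 and 72.5 CPM in old AAV-Kl mice. Oldest-old GFP mice had 37.1, 52.4, 46.9 and 59.3 CPM and oldest-old AAV-Kl mice 134, 110, 125 and 179 CPM. The oldest-old AAV-Kl libraries again lay above all others, and the log2 interaction was 1.54 (standard error 0.41; edgeR, unadjusted p = 0.00131). The orphan nuclear receptor Nr4a3, an early gene of contracting muscle, varied widely in old mice. It had 19, 53.8, 98.9 and 73.7 CPM in old GFP mice and 59.6, 39.4, 17.1 and 31.0 CPM in old AAV-Kl mice. It had 11.8, 17.7, 17.1 and 39.3 CPM in oldest-old GFP mice and 64.2, 63.5, 61.3 and 96.2 CPM in oldest-old AAV-Kl mice. The groups overlapped in old mice and were apart in oldest-old mice, with a log2 interaction of 2.47 (standard error 0.61; edgeR, unadjusted p = 0.000789). Under the 29 other settings the interaction of Irs2 lay between 1.32 and 1.90 and that of Nr4a3 between 2.14 and 3.01, and each kept an unadjusted p under 0.05.

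Of the other protein-coding genes with the smallest p and a positive interaction, Mvk encodes mevalonate kinase of the sterol pathway and had a log2 interaction of 0.52. Its levels were 7.73, 6.13, 7.61 and 6.96 CPM in old GFP mice, 6.18, 5.99, 6.61 and 5.64 CPM in oldest-old GFP mice, 5.76, 6.33, 6.35 and 5.75 CPM in old AAV-Kl mice and 7.13, 7, 7.56 and 8.07 CPM in oldest-old AAV-Kl mice. The oldest-old groups did not overlap, and the old GFP libraries reached as high as most oldest-old AAV-Kl libraries. Mat2a, which encodes the enzyme that makes the methyl donor S-adenosylmethionine, had a log2 interaction of 0.40. Mat2a fell by 0.21 in old mice, from 176 to 209 CPM with GFP to 142 to 179 CPM with AAV-Kl (edgeR, unadjusted p = 0.00795), and its change in oldest-old mice was 0.20. The rest of this set was Ubtd1 (0.38), Katna1 of the microtubule-severing enzyme katanin (0.36), the splicing factor Tra2a (0.34), Mrps24 and the chaperone Hspa1b.

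The 10 protein-coding genes with the smallest p and a negative interaction held regulators of transcription. Zfp949, Zkscan8 and Zfp354c are zinc finger genes with log2 interactions of -0.54, -0.34 and -0.48. Rbpj, the DNA-binding partner of Notch, had -0.34, the forkhead factor Foxc1 had -0.66, and Kdm6a, a histone H3 lysine demethylase, had -0.30. Rnase13, of the ribonuclease A family, had -2.40 at a low level. Rnase13 was at 0.426 to 0.818 CPM in oldest-old AAV-Kl mice and at 0.91, 1.44, 2.41 and 5.20 CPM in oldest-old GFP mice. Zc3h6 (-1.14), Ankrd39 (-0.49) and the caspase Casp2 (-0.75) completed the set.

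In 8 of the 17465 genes (0.0458%) the AAV-Kl and GFP libraries did not overlap at either age and the 2 responses ran in opposite directions. That share is the count itself over all tested genes and was not compared with a chance expectation. The number of such genes is therefore not a result, and single genes are given as descriptions. All 8 had an interaction p under 0.05, which the pattern favours, and 7 had a mean of at least 1 CPM. Zfp949 (GRCm38, chr9:88548020-88571061, plus strand) had 7.76, 8.22, 7.08 and 8.03 CPM in old GFP mice and 8.44, 10.2, 8.89 and 8.63 CPM in old AAV-Kl mice. In oldest-old mice it had 9.27, 9.35, 9.41 and 10.5 CPM with GFP and 7.93, 7.05, 7.90 and 7.92 CPM with AAV-Kl. Zfp949 was thus higher with AAV-Kl in old mice and lower with AAV-Kl in oldest-old mice, by log2 changes of 0.22 and -0.33. Rbpj, Sp1, Zfx and Ankrd39 had the same order, with log2 interactions of -0.34, -0.34, -0.27 and -0.49. Sp1 and Zfx both encode zinc finger transcription factors. Sp1 had 23.6, 23.1, 21.1 and 23.2 CPM in old GFP mice, 24.1, 28.3, 24.5 and 23.6 in old AAV-Kl mice, 28.1, 28, 25.9 and 33.4 in oldest-old GFP mice and 25.3, 25.1, 25.3 and 24.9 in oldest-old AAV-Kl mice. The old AAV-Kl and old GFP libraries of Sp1 are separated only narrowly. Those of Rbpj are too, with 26.3 CPM at most with GFP and 26.6 CPM at least with AAV-Kl. In oldest-old mice the lowest GFP and the highest AAV-Kl library of Zfx were both at 18.6 CPM after rounding.

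The reverse order, lower with AAV-Kl in old mice and higher in oldest-old mice, was held by Mrps24 and Mus81. Mrps24 encodes a protein of the small mitochondrial ribosomal subunit and Mus81 a nuclease that resolves branched DNA. Mrps24 (GRCm38, chr11:5703983-5715680, minus strand) had 28.4, 28.1, 27.3 and 26.9 CPM in old GFP mice and 25.4, 25.2, 25.5 and 25.5 CPM in old AAV-Kl mice. It had 26, 27.1, 27.1 and 25.8 CPM in oldest-old GFP mice and 29.1, 28.5, 28.5 and 27.8 CPM in oldest-old AAV-Kl mice. These are small differences with little spread, and the log2 interaction was 0.23 (standard error 0.05; edgeR, unadjusted p = 0.00044). Mus81 had a log2 interaction of 0.31. Its oldest-old groups were close, with 20.3 CPM at most with GFP and 20.4 CPM at least with AAV-Kl.

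**Figure D2:**
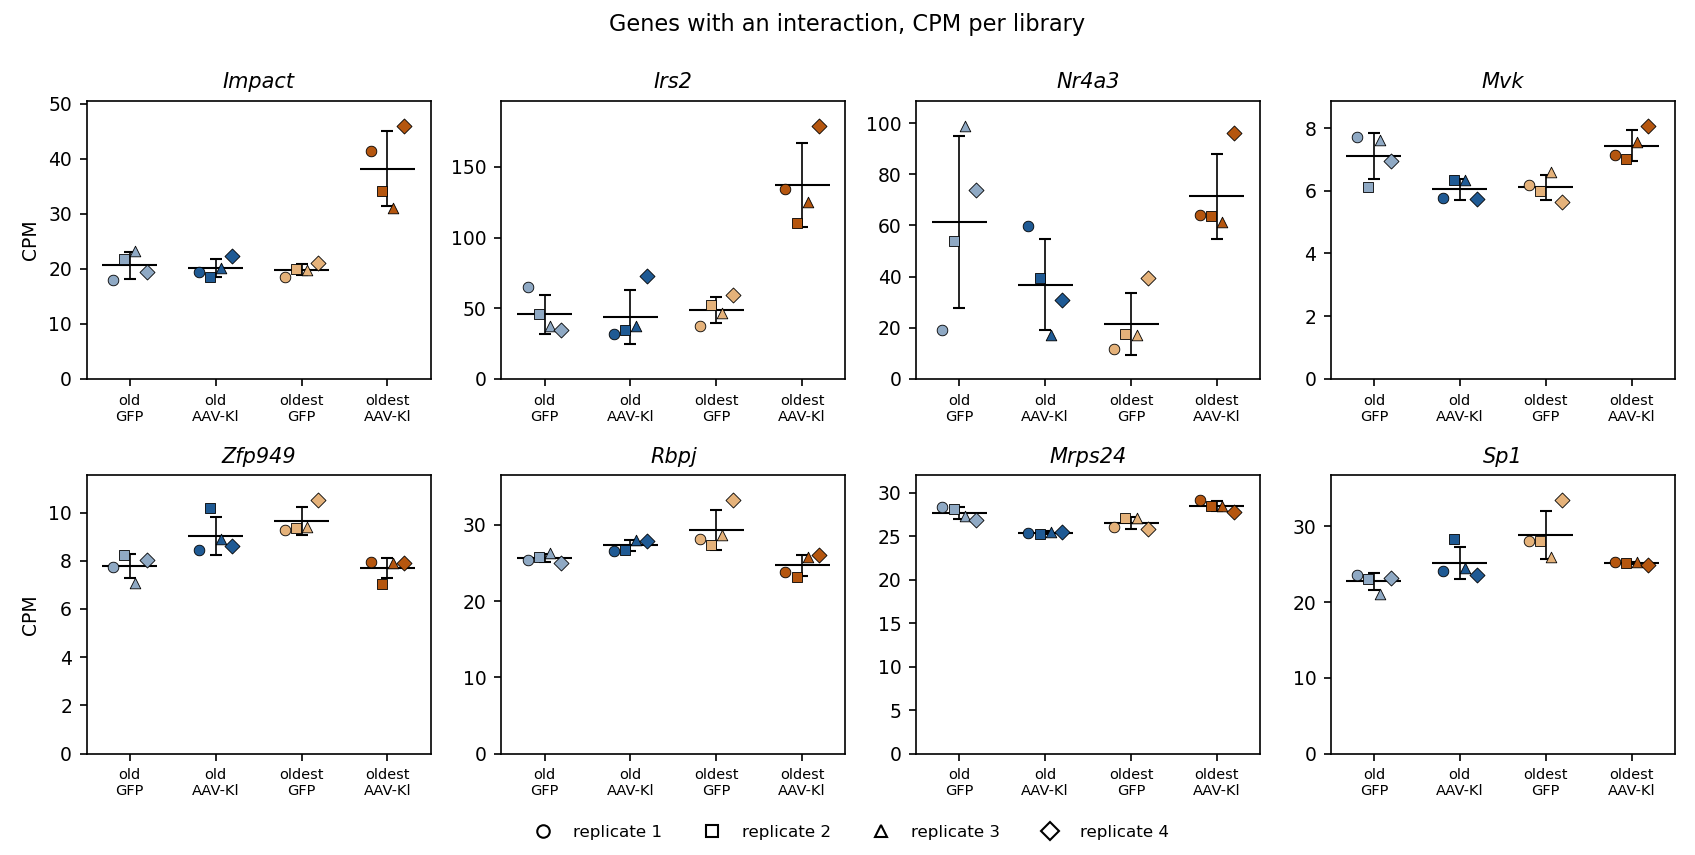
CPM of 8 genes with an interaction in each of the 16 libraries (vertical axis from 0), by group, with the marker shape giving the replicate and the bars the mean and SD of 4 mice. Oldest-old AAV-Kl libraries stand above all others shown for Impact and Irs2. Zfp949, Rbpj and Sp1 show small changes in opposite directions at the 2 ages.

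All 21 tested genes listed as heat-inducible chaperones, which include the constitutive HSP70, Hspa8, had a positive interaction. Of them 10 (47.6%) passed an unadjusted p under 0.05, against 2.39% of all tested genes in that direction. None passed with a negative sign. The median interaction of the list was 0.29, from a median log2 change of -0.07 in old and 0.23 in oldest-old mice, where the median interaction over all tested genes was 0.00032. In oldest-old mice alone 13 of the 21 passed as higher with AAV-Kl, against 3.60% of all tested genes, and in old mice 0 passed. The genes of this list share their regulation and are not independent of each other. This list and the others were chosen with earlier results of these data known, so their shares describe the genes and are not independent evidence.

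The heat-inducible forms of HSP70 had the largest interactions of the list. Hspa1b had 3.75, 7.07, 4.30 and 2.30 CPM in old GFP mice and 3.39, 2.60, 2.63 and 3.23 CPM in old AAV-Kl mice. It had 7.12, 4.83, 3.11 and 3.42 CPM in oldest-old GFP mice and 5.76, 12.6, 63.4 and 9.89 CPM in oldest-old AAV-Kl mice. Oldest-old AAV-Kl replicate 3 was thus far above every other library, and replicate 1 lay within the GFP range. The log2 interaction of Hspa1b was 2.87 (standard error 0.80; edgeR, unadjusted p = 0.00214), and 1.59 (unadjusted p = 0.00467) without that replicate. Hspa1a, the neighbouring copy, had 45.6 CPM in the same library and at most 9.36 CPM elsewhere. Its log2 interaction was 2.32, and 1.06 without replicate 3. Hspa1a and Hspa1b are nearly identical in sequence. Reads that fit both copies equally were not counted, so both levels rest on the reads that fit a single copy. Dnajb1, an HSP40 that delivers clients to HSP70, had 10, 20.1, 71.5 and 13.4 CPM in oldest-old AAV-Kl mice and 5.51 to 10.6 CPM in oldest-old GFP mice. Its log2 interaction of 1.87 became 0.89 (unadjusted p = 0.0117) without replicate 3.

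The more abundant chaperones gave smaller and more even differences. Hspa8, the constitutive HSP70 (GRCm38, chr9:40800984-40810087, plus strand), had 925, 993, 990 and 1040 CPM in old GFP mice and 927, 940, 908 and 972 CPM in old AAV-Kl mice. It had 984, 863, 744 and 838 CPM in oldest-old GFP mice and 1030, 1070, 1220 and 993 CPM in oldest-old AAV-Kl mice. The 2 oldest-old groups did not overlap, although replicates 1 and 4 of the respective groups were close. The log2 interaction of Hspa8 was 0.41 (standard error 0.12; edgeR, unadjusted p = 0.00354), with a range of 0.33 to 0.48 under the other settings. Ahsa1, which activates the ATPase of HSP90, had a log2 interaction of 0.27, with 51.1, 51.1 and 50.7 CPM in 3 oldest-old GFP mice, 59.1 CPM in replicate 1 of that group, and 57.9 to 65.2 CPM in oldest-old AAV-Kl mice. Hsp90aa1, the inducible HSP90, had 0.58, with 44.5 to 60.3 CPM in oldest-old GFP mice and 53.9 to 88.4 CPM in oldest-old AAV-Kl mice. Hsph1 (0.45), Dnaja1 (0.36), Chordc1 (0.28) and Hspe1 (0.22) also passed the unadjusted threshold.

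The remaining 11 members had unadjusted p-values above 0.05. Hspd1 had a log2 interaction of 0.23, Stip1 of 0.21, Serpinh1 of 0.55, Hsp90ab1 of 0.16, Bag3 of 0.10 and Fkbp4 of 0.05. Serpinh1, the collagen chaperone, had 16.6 CPM in oldest-old GFP replicate 4 and 34.3 to 63.5 CPM in all 15 other libraries. Leaving out single libraries, the number of heat-inducible chaperones past the threshold lay between 6, without old AAV-Kl replicate 2, and 15, without oldest-old GFP replicate 1. Without both oldest-old AAV-Kl replicate 3, the highest library for this list, and oldest-old GFP replicate 4, the lowest, 5 of the 21 passed and the median was 0.17, where 1.55% of all tested genes passed as positive. Both libraries were chosen after their values were seen.

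**Figure D3:**
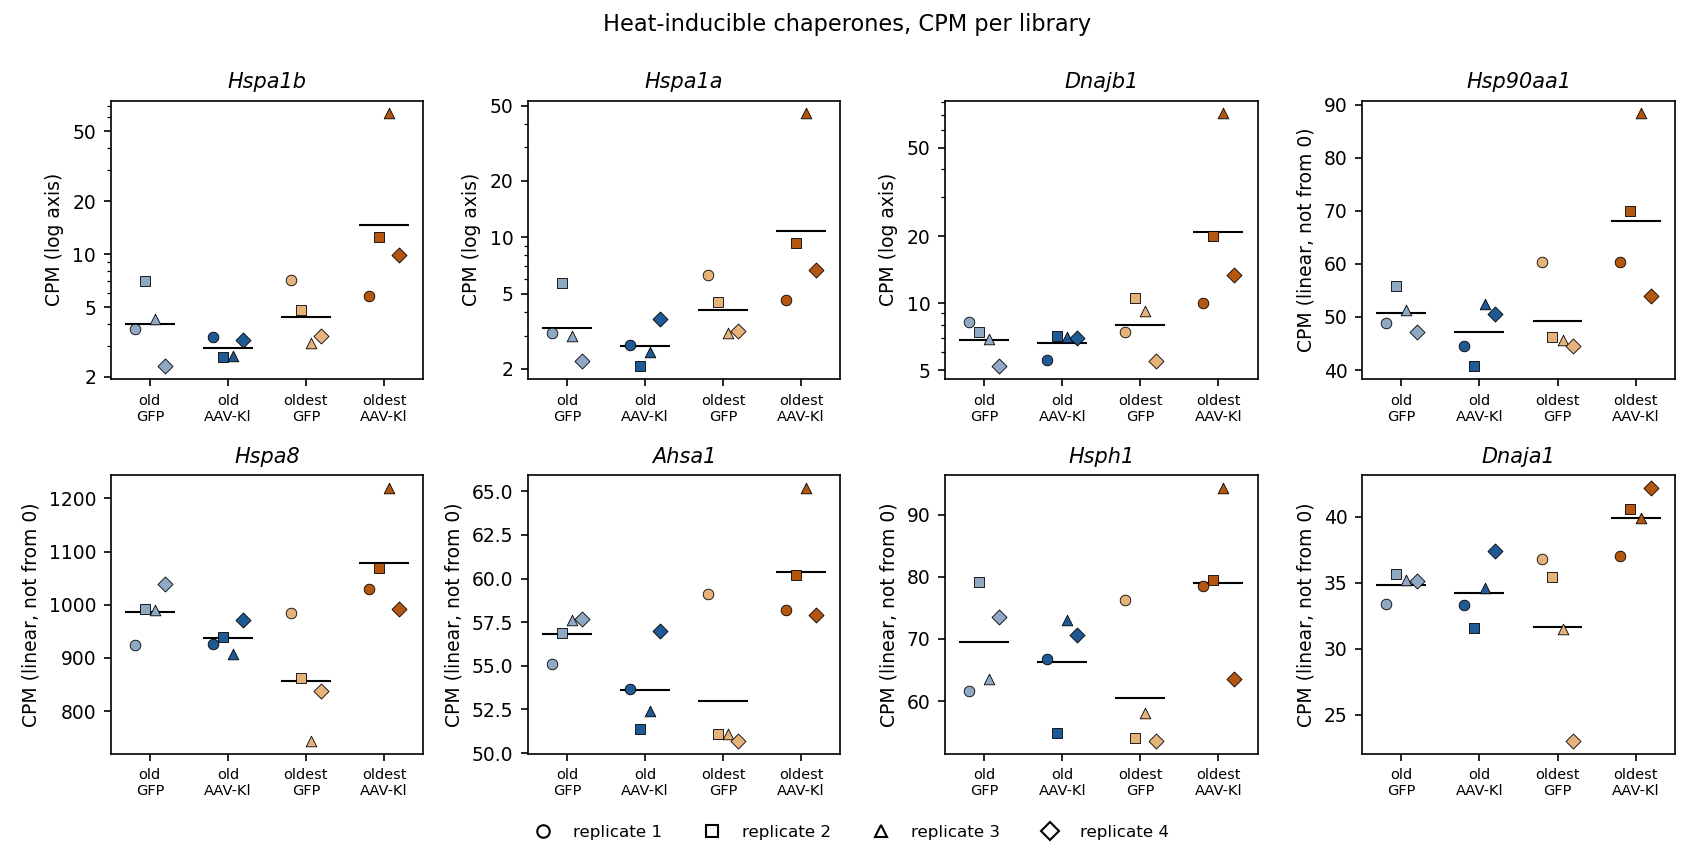
CPM of 8 heat-inducible chaperones in each of the 16 libraries, by group, with the marker shape giving the replicate, on a log axis with the geometric mean as a bar for Hspa1b, Hspa1a and Dnajb1 and on linear axes that do not start at 0 with the mean as a bar for the others. Oldest-old AAV-Kl replicate 3 is the highest library in 7 of the 8 panels, and the old AAV-Kl and old GFP libraries overlap in all 8.

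Heat shock factors bind inverted repeats of the unit NGAAN, and the 250 bases before the annotated starts of these genes were searched for the letters TTCNNGAA or GAANNTTC, which read the same on both strands and overlap each other in longer arrays. Starts and sequences are those of RefSeq on GRCm38.p6, and 17 of the 21 genes were matched. At least 1 match lay before 9 of the 17 genes (52.9%), against 14.5% of 27025 RefSeq genes, tested here or not. The list was drawn up as heat-inducible, so a higher share was built into it and does not bear on AAV-Kl. A longer form with another unit joined on by the same spacing lay before 2 of the 17, Hspd1 and Hspe1, and before 0.514% of all genes. Of the genes with a positive interaction 13.4% held the shorter form, and of those with a negative interaction 10.5%, both below the share of all genes. A match is a description of letters and does not show that a factor was bound. Stretches with a match are shown for a few of these chaperones, with the matches in capitals, the stretch of Hspa1b identical to that of Hspa1a, and that of Hspe1 lying in the promoter it shares with Hspd1.
Hspa1b, chr17:34959311-34959366, minus strand: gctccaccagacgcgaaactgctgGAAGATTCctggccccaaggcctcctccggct
Hspa1a, chr17:34972229-34972284, minus strand: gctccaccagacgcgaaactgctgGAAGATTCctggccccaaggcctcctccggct
Hsph1, chr5:149636338-149636393, minus strand: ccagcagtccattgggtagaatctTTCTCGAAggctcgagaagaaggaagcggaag
Dnaja1, chr4:40722320-40722375, plus strand: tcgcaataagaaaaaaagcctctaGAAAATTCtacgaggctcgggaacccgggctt
Hspb1, chr5:135887778-135887853, plus strand: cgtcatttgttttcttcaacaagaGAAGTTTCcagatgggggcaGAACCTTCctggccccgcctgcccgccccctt
Hspe1, chr1:55088035-55088100, plus strand: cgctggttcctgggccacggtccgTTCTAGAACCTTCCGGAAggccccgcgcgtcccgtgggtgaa

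The stretch of Hspe1 held 3 overlapping matches and that of Hspb1 held 2. The number of matches did not order the interactions. Hspe1 had a log2 interaction of 0.22 and Hspb1 of 0.32 (unadjusted p = 0.267), below that of Hspa1b with 1 match, and Dnajb1 held none before either of its starts.

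Other families of chaperones had from none to 3 genes past the threshold. Of 7 small heat shock proteins, which hold unfolded proteins in muscle, 1 (14.3%) passed, Hspb8, with a log2 interaction of 0.42, while Cryab had 0.18 (unadjusted p = 0.484). Of 21 constitutive cytosolic chaperones, 3 (14.3%) passed as positive, where 2.39% of all tested genes did, the co-chaperone Dnajb2 (0.34) and the myosin chaperones Unc45a (0.28) and Unc45b (0.16). Of 20 genes listed under mitochondrial chaperones and proteases, 3 (15%) passed as positive, Chchd10 (0.38), Hspe1 and the protease subunit Clpp (0.15). Hspe1 was already counted among the heat-inducible chaperones. Leaving out single libraries gave 1 to 5 of these, with 1 without old GFP replicate 2, old AAV-Kl replicate 3 or oldest-old GFP replicate 3, and 0 to 2 small heat shock proteins. Of 14 subunits of the TRiC and prefoldin complexes 0 passed, with a median of 0.03, and of 20 chaperones of the endoplasmic reticulum 0 passed, with a median of -0.01. Cct3 of TRiC had the smallest p of its list (0.26; unadjusted p = 0.0728).

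Genes of the mitochondrial respiratory chain encoded in the nucleus had a positive interaction throughout. All 79 tested subunits of complexes I to IV and ATP synthase, cytochrome c included, had positive values, and 19 of them (24.1%) passed an unadjusted p under 0.05, against 2.39% of all tested genes. The median interaction was 0.20, from -0.06 in old and 0.15 in oldest-old mice. These lists too were chosen with earlier results of these data known, so the share is a description. By complex, 9 of 36 subunits of complex I, 1 of 4 of complex II, 2 of 10 of complex III and cytochrome c, 5 of 14 of complex IV and 2 of 15 of ATP synthase passed. The subunits with the smallest p in each were Ndufab1 of complex I (0.36), Sdhb of complex II (0.33), Uqcrq of complex III (0.39), Cox5b of complex IV (0.35) and Atp5d of ATP synthase (0.26).

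Cox5b had 242, 242, 239 and 230 CPM in old GFP mice and 245, 197, 217 and 196 CPM in old AAV-Kl mice. It had 230, 245, 228 and 179 CPM in oldest-old GFP mice and 250, 235, 277 and 244 CPM in oldest-old AAV-Kl mice. The groups overlapped at both ages, and oldest-old GFP replicate 4 was the lowest of all 16 libraries. Ndufab1 followed the same order, with 41.4, 40.8, 42.3 and 41.0 CPM in old GFP mice, 42.2, 34.4, 37.0 and 40.5 in old AAV-Kl mice, 39.9, 41.6, 37.7 and 28 in oldest-old GFP mice, and 41.5, 42.1, 49.5 and 42.1 in oldest-old AAV-Kl mice.

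The mean log2 CPM of the 79 subunits shows which libraries carry the difference. It was 7.064, 7.056, 7.097 and 7.059 in old GFP mice and 7.077, 6.946, 6.950 and 7.031 in old AAV-Kl mice. It was 7.025, 7.116, 7.031 and 6.710 in oldest-old GFP mice and 7.096, 7.028, 7.235 and 7.097 in oldest-old AAV-Kl mice. Oldest-old GFP replicate 4 lay far below and oldest-old AAV-Kl replicate 3 above the rest, and the other 6 oldest-old libraries overlapped. Of the 19 subunits past the threshold, 9 remained in number without oldest-old GFP replicate 4, 5 without oldest-old AAV-Kl replicate 3, 6 without old AAV-Kl replicate 2, 10 without old AAV-Kl replicate 3, and 12 without old GFP replicate 3 or without old GFP replicate 4. The number was 42 without oldest-old GFP replicate 2 and 29 without oldest-old AAV-Kl replicate 2. Without both oldest-old GFP replicate 4 and oldest-old AAV-Kl replicate 3, 2 subunits passed, 72 of 79 stayed positive, and the median was 0.08, made up of -0.07 in old and 0.01 in oldest-old mice. Without old AAV-Kl replicate 2 and oldest-old GFP replicate 4, the lowest of their groups, 6 passed and the median was 0.10. Oldest-old GFP replicate 4 was also the library with the most erythroid RNA, and old AAV-Kl replicate 2 held keratinocyte and erythroid RNA. The part of this in the result was not tested. Without old GFP replicates 1 and 4, which held liver RNA, 7 subunits passed and the median was 0.20, and in a fit of the 16 libraries alone 11 passed.

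Mitochondrial ribosomal proteins behaved similarly, with 74 of 77 genes positive, 13 (16.9%) past the unadjusted threshold as positive, 0 as negative and a median of 0.15. Of all tested genes 2.39% passed as positive. Beside Mrps24, described above, Mrpl57 (0.31), Mrps22 (0.32) and Mrpl58 (0.29) had the smallest p. The number past the threshold was 7 without oldest-old GFP replicate 4, 7 without old AAV-Kl replicate 2, 6 without oldest-old AAV-Kl replicate 3 and 5 without the first and last of these together. Of 22 genes of mitochondrial protein import 3 (13.6%) passed as positive, Tomm5 (0.36), Pmpcb (0.32) and Timm50 (0.18), and 1 passed without old AAV-Kl replicate 2. Of 22 genes of fatty acid oxidation 2 (9.09%) passed as positive, Ech1 (0.38) and Cpt2 (0.35), and leaving out single libraries gave between 0 and 9. All 17 genes of the tricarboxylic acid cycle and pyruvate dehydrogenase were positive with a median of 0.15, and 0 passed, Mdh2 having the smallest p (0.28; unadjusted p = 0.054).

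Transcripts of the mitochondrial genome itself were tested apart. Of the 13 protein-coding transcripts 0 passed, the median interaction was 0.04, and 9 of 13 were positive. The smallest p was that of mt-Co1, which had 41500, 44400, 44900 and 47700 CPM in old GFP mice, 49400, 37500, 39100 and 45000 in old AAV-Kl mice, 40600, 44800, 42000 and 31600 in oldest-old GFP mice and 44200, 41600, 46800 and 44400 in oldest-old AAV-Kl mice (edgeR, log2 interaction 0.22, unadjusted p = 0.172). Of 21 genes of mitochondrial biogenesis, fusion and mitophagy 0 passed, with a median of 0.02. Cytosolic ribosomal proteins had a median of -0.04, and 0 of 79 passed. Without old AAV-Kl replicate 2 and oldest-old GFP replicate 4, 13 of them passed as positive and their median was 0.10. In that setting 1.76% of all tested genes passed as positive.

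**Figure D4:**
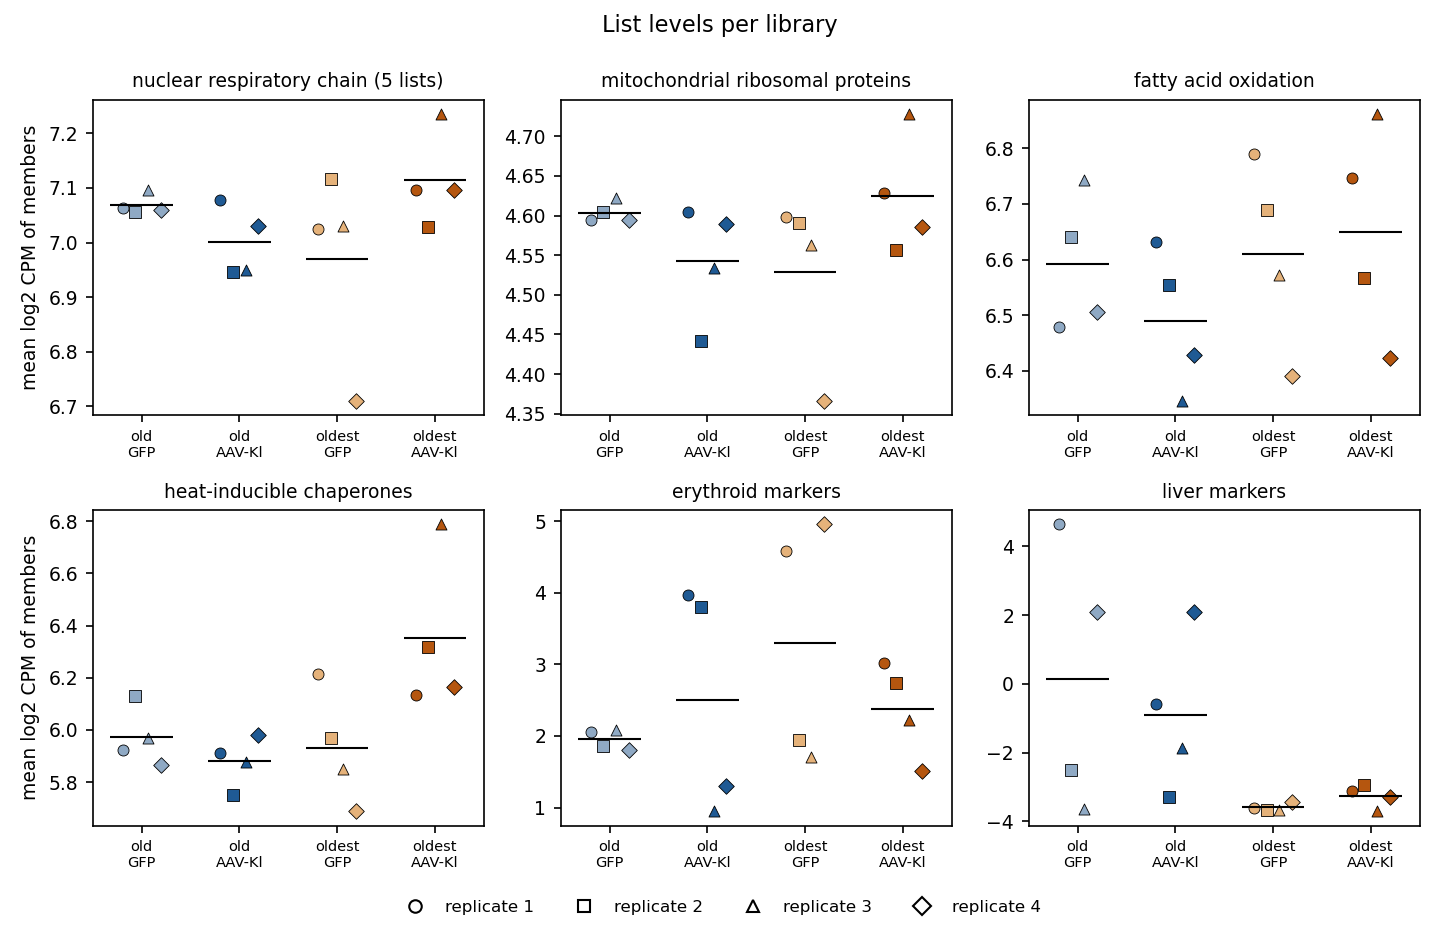
Mean log2 CPM of the members of 6 gene lists in each of the 16 libraries, by group, with the marker shape giving the replicate and bars the mean of 4 mice. Oldest-old GFP replicate 4 is lowest for the respiratory chain and mitochondrial ribosomal proteins, oldest-old AAV-Kl replicate 3 is highest for these and for the heat-inducible chaperones, and the erythroid and liver markers show the libraries that hold RNA of other cells.

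The integrated stress response, the pathway that GCN2 and related kinases feed, had 1 gene of 23 past the threshold as positive, Impact, and 1 as negative, Chac1, a glutathione-degrading enzyme induced by ATF4. Each is 4.35% of the list, where 2.39% of all tested genes passed as positive and 2.73% as negative, so both counts are near that background. Chac1 had 158 CPM in oldest-old GFP replicate 4 and 110 CPM in old AAV-Kl replicate 2, and 12.2 to 52.1 CPM in the other 14 libraries. Its log2 interaction of -2.27 (unadjusted p = 0.0146) was -1.32 (unadjusted p = 0.0796) without the former and -1.57 (unadjusted p = 0.0592) without the latter. The glucocorticoid target Fkbp5 had the same shape, with 153 and 131 CPM in these libraries and 57.7 CPM at most in the others. Its log2 interaction of -1.93 (unadjusted p = 0.0395) was -1.06 (unadjusted p = 0.189) and -1.23 (unadjusted p = 0.151) without them. The atrophy ligase Fbxo32 was at 1160 CPM in oldest-old GFP replicate 4 and at 304 to 620 CPM elsewhere (log2 interaction -0.71, unadjusted p = 0.0756), and 0 of 13 atrophy genes passed.

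Of 21 immediate early genes, 2 (9.52%) passed as positive, Nr4a3 and Atf3, and 1 (4.76%) as negative, Ier3 (-0.80). Of all tested genes 2.39% passed as positive and 2.73% as negative. Atf3, a stress-induced transcription factor, had 25.9, 47.7, 178 and 46.9 CPM in oldest-old AAV-Kl mice, 23.4, 31.7, 23.9 and 10.5 CPM in oldest-old GFP mice, and 4.97 to 17.8 CPM in old mice of either group. Its log2 interaction was 2.37, and 1.48 (unadjusted p = 0.0253) without oldest-old AAV-Kl replicate 3, the library that was also highest for Hspa1b. Among lipid genes 2 of 25 (8%) of lipogenesis and sterol synthesis passed as positive, the sterol regulator Srebf2 (0.35) and Fdps (1.63), the latter at only 0.093 to 0.425 CPM. Leaving out single libraries gave 1 to 5 of this list. Its median of 0.27 was 0.08 without oldest-old AAV-Kl replicate 2, a library high in adipocyte markers, whose part in the result was not tested. Of 33 genes of sphingolipid metabolism, 1 (3.03%) passed as negative, the phosphatase Sgpp1 (-0.19), which is near the share of all tested genes.

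Interferon-induced genes had mainly negative interactions. Of 13, 3 passed as negative, Rsad2 (-1.51), Oasl2 (-1.29) and Isg15 (-1.64), which is 23.1% against 2.73% of all tested genes in that direction, and the median was -0.85. Isg15 had 0.651, 1.29, 5.03 and 0.819 CPM in old AAV-Kl mice, so that replicate 3 stood above its group. Without oldest-old GFP replicate 4, 0 of the 13 passed and the median was -0.40, and without old AAV-Kl replicate 3 the median was -0.24. Without oldest-old AAV-Kl replicate 2, which had the highest summed level of these genes (159.2 CPM), 6 passed as negative. Of the 17804 genes tested in that setting, 612 did. Macrophage markers (1 of 8 positive, median -0.33) and B and plasma cell markers (1 of 7 positive, median -1.56) also had negative medians. T and NK cell markers (4 of 5 positive, median 0.67) and neutrophil markers (3 of 4 positive, median 0.105) had positive medians. In each of these marker lists 0 genes were past the threshold, and their part in the result was not tested. Without oldest-old AAV-Kl replicate 2 the medians were -1.34 for the interferon-induced genes, -0.95 for macrophage markers and -2.66 for B and plasma cell markers. They were then -0.93 for T and NK cell markers and -0.56 for neutrophil markers. Of 46 actin regulators, 13 calcineurin and NFAT genes, 21 calcium-handling genes, 12 denervation genes, 32 proteasome subunits and 17 genes of autophagy and lysosomes, 0 passed, with medians between -0.03 and 0.08. Without oldest-old AAV-Kl replicate 4, 4 of the calcium-handling genes passed as negative, where 440 of all 17916 tested genes did. Of 20 genes of cGMP signalling, 1 passed as positive, Vasp (0.68), and 1 as negative, Gucy1a1 (-0.49). Single genes passed among fibre genes (Myh1, -0.50), clock genes (Nfil3, 0.67), antioxidant enzymes (Prdx1, 0.22) and matrix genes (Lox, -0.81), and Cebpb (0.62) was the positive glucocorticoid target. From cGMP signalling on, each is 1 gene of its list in its direction, or 5% to 7.14%. Of all tested genes 2.39% passed as positive and 2.73% as negative.

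**Figure D5:**
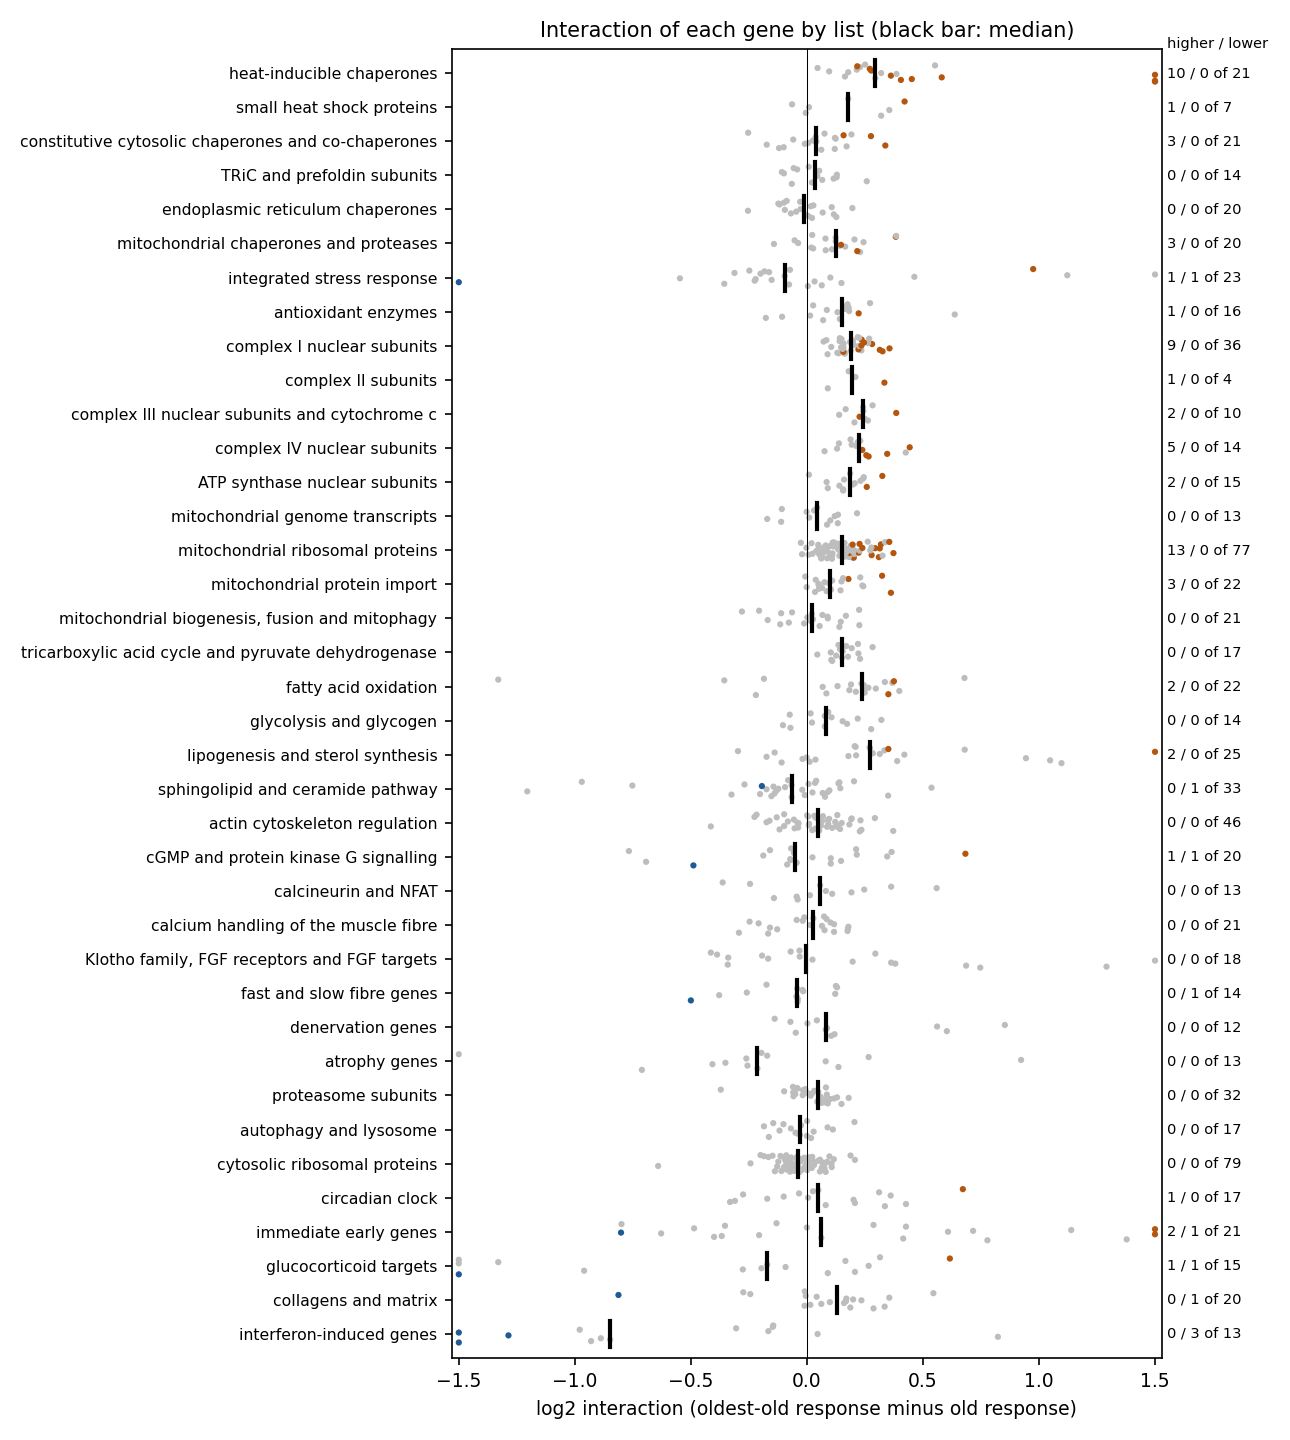
Log2 interaction (horizontal axis) of each tested gene of 38 lists, with 15 list entries beyond 1.5 drawn at the edge, orange and blue points for a positive or negative interaction at an unadjusted p under 0.05, black bars for medians, and counts of genes past that threshold at the right. Heat-inducible chaperones, the respiratory chain lists and mitochondrial ribosomal proteins lie to the right of 0, and interferon-induced genes mainly to the left.

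Klotho itself was barely counted in muscle. Kl had 0 to 13 reads per library, which neither checks nor contradicts the labels, because the transgene is codon-optimised and driven by a liver promoter. Fgf23 did not pass the filter, with 0 to 7 reads. Of the 18 tested genes of the Klotho family, FGF receptors and FGF targets 0 passed, and the median was -0.003. Dusp6, a feedback phosphatase of FGF signalling, had the smallest p of this list (-0.41; unadjusted p = 0.0625). Fgfr1, the receptor with the most reads, had 85.0, 91.4, 110 and 177 CPM in oldest-old GFP mice and 90.0, 94.8, 102 and 98.5 CPM in oldest-old AAV-Kl mice, with 76.1 to 127 CPM in old mice, and a log2 interaction of -0.34 (unadjusted p = 0.194). Fgfr2, Fgfr3 and Fgfr4 had log2 interactions of 0.38, 0.36 and 0.20 with unadjusted p-values of 0.763, 0.152 and 0.515.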

How the data were processed

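Total RNA of gastrocnemius muscle was sequenced, and the authors deposited whole-number counts of reads per gene for each library, made with STAR 2.7.0a on GRCm38. The unstranded column was taken here, since 49.8 to 50.4% of stranded counts fell on the first strand, and reads from a gene and an antisense or overlapping gene cannot be told apart. Of 55385 genes in the files, 55144 were matched to a symbol and position in GENCODE release M21. Genes were kept by filterByExpr, scaled by TMM and tested with edgeR 4.0.16 in R 4.3.3 (quasi-likelihood, Benjamini-Hochberg adjustment). The fit had 20 libraries in 5 groups, young GFP mice included to share the estimate of spread. DESeq2 1.42.0 and other scalings, filters, sample sets and covariates were alternatives, and 2 pairs of libraries to leave out were chosen after seeing the data.

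The lists and named genes were chosen with earlier results of these data known. Named were genes with an adjusted p under 0.05, the 10 protein-coding genes of smallest p in each direction at 1 CPM or more, genes whose libraries were apart at both ages in opposite directions, up to 4 genes of each list, all heat-inducible chaperones, and Kl, Fgf23 and the FGF receptors. The scripts were tested on simulated data. No pair of libraries agreed within sampling noise (lowest chi-square per degree of freedom 13.8). The labels number the libraries of each group as separate samples. The p-values rest on a spread per gene estimated jointly over the 20 libraries of the fit, young GFP mice included. Groups with a wider or narrower spread were not given their own estimate.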

Additional observations from a re-analysis of the deposited data

Results flagged for a closer look

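Of 192 groups of 4 libraries examined over 48 genes, 17 (8.85%) held a library far from the other 3, where chance gives about 1 in 20. Oldest-old AAV-Kl replicate 3 stood high for Hspa1b (63.4 CPM), Hspa1a (45.6 CPM), Dnajb1 (71.5 CPM), Hspb1 (206 CPM) and Hspd1 (172 CPM). Oldest-old GFP replicate 1 stood high for Hsp90aa1 (60.3 CPM) and Ahsa1 (59.1 CPM). Oldest-old GFP replicate 4 stood high for Hsp90ab1 (1470 CPM) and Zfp949 (10.5 CPM). Old AAV-Kl replicate 3 stood high for Hsp90ab1 (1280 CPM), old AAV-Kl replicate 1 low for Dnajb1 (5.55 CPM), and old AAV-Kl replicate 4 high for Irs2 (72.5 CPM). Among oldest-old AAV-Kl libraries, replicate 4 stood high for Nr4a3 (96.2 CPM), replicate 2 low for Zfp949 (7.05 CPM) and replicate 1 apart for Fgfr3 (5.47 CPM). Fgfr2 was at 2.44 CPM in old AAV-Kl replicate 2 and at 2.18 CPM in oldest-old AAV-Kl replicate 2, above the rest of each group.

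In 7 genes with a mean of at least 1 CPM, every AAV-Kl library lay on one side of every GFP library in old mice and on the other side in oldest-old mice. Of all 17465 tested genes 8 (0.0458%) had this pattern. That share is the count itself and was not compared with a chance expectation, so the number of such genes is not a result. Their log2 interactions were -0.54 for Zfp949, -0.49 for Ankrd39, -0.34 for Sp1, -0.34 for Rbpj, 0.31 for Mus81, -0.27 for Zfx and 0.23 for Mrps24, each with an unadjusted p under 0.05 and an adjusted p of 0.94 by edgeR.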

How the results depend on the processing

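The count of genes with an adjusted p under 0.05 was 1, Impact, with DESeq2, with all 24 libraries (young sham included) and without oldest-old AAV-Kl replicate 3, and 0 under the other settings. The count at an unadjusted p under 0.05 was 1372 (712 positive) with no filter on low counts, 588 (276 positive, 312 negative) without oldest-old GFP replicate 4 and oldest-old AAV-Kl replicate 3, and 580 (268 negative) without old AAV-Kl replicate 2 and oldest-old GFP replicate 4. Leaving out single libraries gave 637 (without oldest-old GFP replicate 4) to 1204 (without oldest-old GFP replicate 2) genes, 308 to 592 positive, 301 to 612 negative, and 0 to 1 after adjustment. With the replicate number as a block, 891 genes passed (408 positive, 483 negative). In a fit of the 16 old and oldest-old libraries alone, 726 genes passed (317 positive, 409 negative), or 4.21% of those tested. There, 17 of 106 named genes lost an unadjusted p under 0.05. The numbers were not taken as pairs, since same-numbered libraries had correlated deviations over 0.1 in 5 of 24 pairs, with 3 of the 5 between old and oldest-old AAV-Kl mice (0.291, 0.416, -0.0454 and 0.141 for replicates 1 to 4). Of 107 named genes, 76 had an unadjusted p under 0.05 and 39 kept it under all 29 settings. The sign turned for Cryab (-0.013) and Bag3 (-0.01) without oldest-old GFP replicate 4 and oldest-old AAV-Kl replicate 3, for Fkbp4 (-0.001) without old GFP replicates 1 and 4, for Fgfr1 (0.099) and Fgfr4 (-0.081) without old AAV-Kl replicate 2 and oldest-old GFP replicate 4, and the log2 interaction of Fgfr2 moved on leaving out single libraries from -0.92 (without oldest-old AAV-Kl replicate 2) to 1.89 (without old AAV-Kl replicate 2). In each case the cause was not tested. Low counts limit Kl and Fgf23.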

Other observations

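Zinc finger genes were examined after Zfp949, Zkscan8 and Zfp354c were seen among the smallest p. Of 405 tested protein-coding genes named Zfp, Zkscan, Zscan or Zbtb, many of which encode DNA-binding repressors, 32 (7.90%) had a negative interaction at an unadjusted p under 0.05 and 3 (0.741%) a positive one, against 2.73% and 2.39% of all tested genes. The 32 became 16 with no filter on low counts, 20 without old GFP replicate 3 and 21 without old AAV-Kl replicate 2 and oldest-old GFP replicate 4. The median interaction was -0.09, from a median log2 change of 0.009 in old and -0.09 in oldest-old mice.

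Gene length moved with the interaction. Among protein-coding genes ordered by summed exon length and split into 4 equal parts, the shortest (114 to 2786 bases, 3574 genes) had a median interaction of 0.06, with 3.67% positive and 1.96% negative at an unadjusted p under 0.05. The longest (6803 to 123179 bases, 3572 genes) had a median of -0.04, with 1.37% positive and 3.89% negative. The median difference of oldest-old GFP replicate 4 from the other 3 libraries of its group was -0.07 in the shortest and 0.01 in the longest genes. The part of length in the results for short transcripts, such as those of the respiratory chain, and for zinc finger genes was not tested.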
